A study of Mus musculus with 6 samples.

Results

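The genes examined here encode amino acid transporters of 6 solute carrier families, SLC1, SLC3, SLC7, SLC36, SLC38 and SLC43. They were chosen by symbol, as every row of the expression table whose name was one of these family prefixes followed by a member number, which gave 42 of 21684 genes. RNA was sequenced from primary murine blood-forming cells of bone marrow origin that carried either an empty vector (3 libraries) or the RUNX1-RARA fusion (3 libraries). RUNX1-RARA fuses RUNX1, a regulator of haematopoiesis, with the retinoic acid receptor RARA, and was studied in the setting of variant acute promyelocytic leukaemia. The comparison asked which genes differ between cells that carry the fusion and vector controls. The sources used here do not give the mouse strain, age or sex, the vector backbone, the share of cells transduced or the time after transduction. They also leave unstated whether replicates are separate animals or cultures, and p-values therefore reflect only the spread among these libraries, which may be technical.

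Amino acids do not cross membranes freely, and cells take them up through carriers with overlapping substrates. Sodium-coupled carriers such as those of SLC38 load the cell with glutamine and small neutral amino acids, and exchangers such as ASCT2 (Slc1a5) and LAT1 (Slc7a5) then trade these for amino acids the cell lacks. The SLC7 light chains of this kind reach the plasma membrane only when bound to an SLC3 heavy chain, for most of them CD98 (Slc3a2). Members of SLC36 and SLC38 also sit on lysosomes, where amino acid release is coupled to the kinase complex mTORC1, and several carriers are known targets of MYC and of the amino acid stress factor ATF4.

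The values were FPKM, fragments per kilobase of gene, scaled to sequencing depth, which allows levels of different genes to be set side by side within a library. Read depth estimated from the steps between low values lay between 26.7 M and 89.8 M reads per library, so that 1 read on a transcript of 2 kb was worth 0.00557 to 0.0187 FPKM. The pan-haematopoietic genes Ptprc, Itgb2, Coro1a, Laptm5 and Spi1 were all expressed, with summed levels of 752 to 774 FPKM in empty vector and 310 to 330 FPKM in RUNX1-RARA libraries. All 10 mature neutrophil markers were lower with the fusion without overlap between groups, their sum going from between 57236 and 64246 FPKM to between 2511 and 3077 FPKM. Of 6 monocyte and macrophage markers 5 were lower. The sum over all 6, mostly Lyz2 in controls, went from between 4318 and 4366 FPKM to between 178 and 191 FPKM. The 4 mast cell and basophil markers (1 higher and 2 lower without overlap) summed to between 1401 and 1503 FPKM in controls and to between 2641 and 2781 FPKM under RUNX1-RARA. The 4 megakaryocyte markers (1 higher, 2 lower) summed to between 76.9 and 83.1 FPKM and between 57.7 and 63.0 FPKM. Markers of T and NK cells (7 genes), B cells (4), erythroid cells (5) and stromal or endothelial cells (6) summed to at most 4.29, 0.55, 2.21 and 0.916 FPKM in any library. Ncr1 of natural killer cells and Pdgfra of stromal cells were listed at 0 throughout. The part of the myeloid marker shift in the transporter differences was not tested, and in bulk RNA fewer cells of a type and less RNA per cell cannot be told apart.

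Of the 42 transporter genes, 22 reached the level needed for a test, set at 1 FPKM or more in at least 3 libraries. Among these, 12 were higher and 7 lower in RUNX1-RARA than in empty vector libraries, and 3 did not pass an adjusted p of 0.05 (limma, Benjamini-Hochberg adjustment over all 10901 tested genes). These 19 of 22 (86.4%) stood against a background of 77.7% of all tested genes, 46.0% higher and 31.7% lower, so most genes were called in this comparison and the share among transporters was near that level. The median log2 fold change was 0.23 over the tested transporters and 0.11 over all tested genes. Of 150 tested genes from all other solute carrier families, 77 were higher and 48 lower (83.3% called), with a median of 0.19. Of the tested transporters, 3 rose and 2 fell by at least 1 on the log2(FPKM + 1) scale, a size reached by 6.12% and 9.72% of all tested genes. Values of the 2 groups did not overlap for 19 of the 22, against 79.1% of all tested genes (46.8% higher and 32.4% lower). Slc7a2 and Slc38a6 passed the level filter only through the empty vector libraries, so the filter itself favoured a fall for them.

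**Figure D1:**
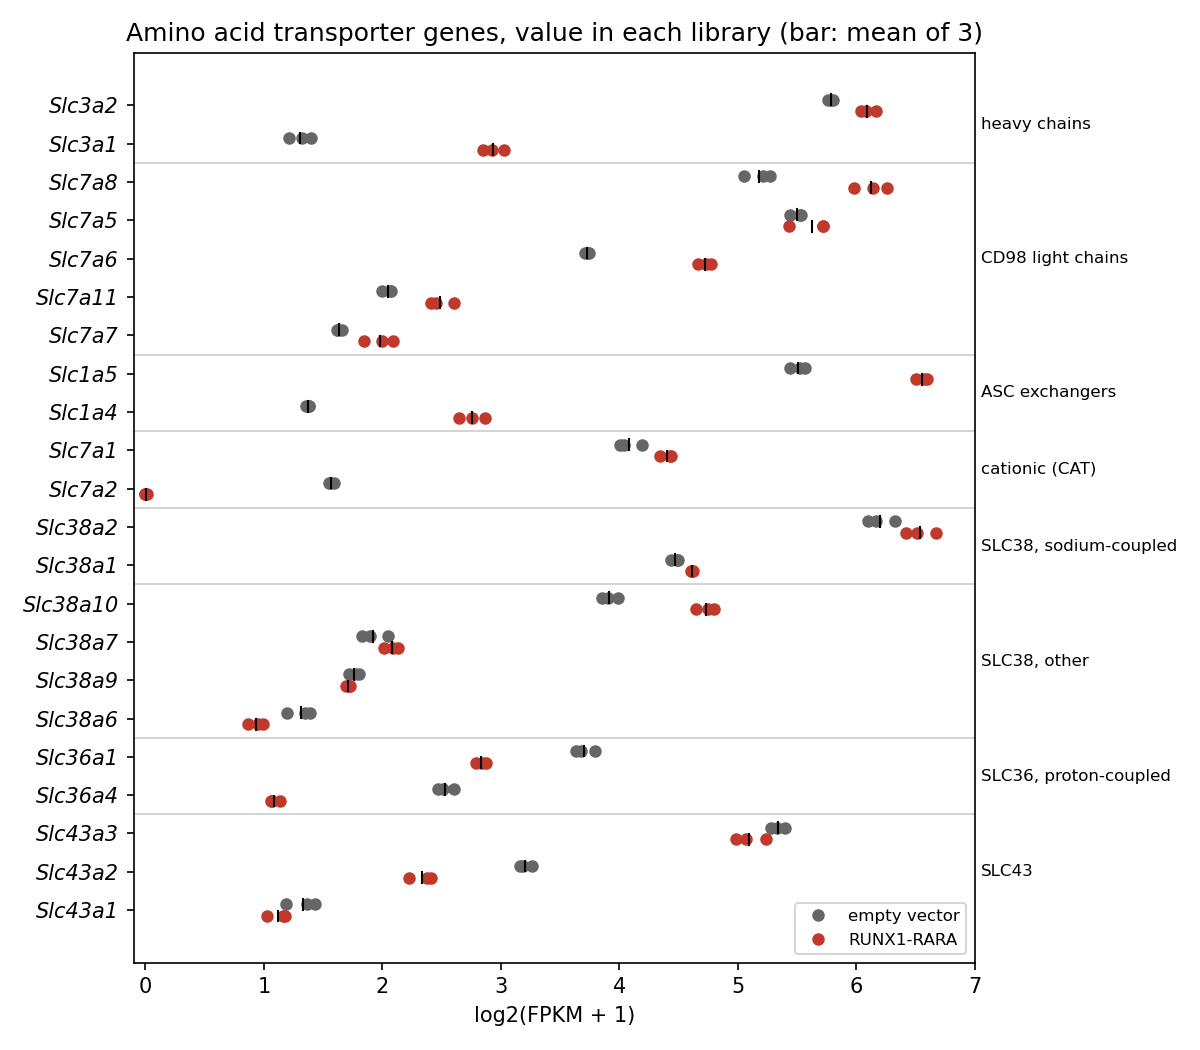
Each point is 1 library, grey for empty vector and red for RUNX1-RARA, for the 22 tested transporter genes grouped by transport system, with log2(FPKM + 1) on the horizontal axis and black bars at the group means. Both ASC exchangers lie to the right with the fusion and both SLC36 members to the left, while the 2 groups overlap for Slc7a5, Slc38a7 and Slc38a9.

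The sum over all 42 genes was 393, 401 and 401 FPKM in empty vector replicates 1, 2 and 3, and 538, 553 and 522 FPKM in RUNX1-RARA replicates 1, 2 and 3. Every fusion library was thus above every control, and the ratio of the means was 1.35 (exact permutation test, two-sided p = 0.1, the smallest that 3 against 3 libraries can give). The 5 most abundant members held 64.0% of this sum in controls (Slc38a2, Slc3a2, Slc1a5, Slc7a5 and Slc43a3) and 68.8% with the fusion (Slc1a5, Slc38a2, Slc7a8, Slc3a2 and Slc7a5). The order of the leading members changed, with Slc1a5 moving from a mean share of 11.2% to 17.3% and Slc43a3 from 9.92% to 6.19%.

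Summed by transport system, the ASC exchangers had the highest ratio of means and the SLC36 carriers the lowest among the 8 systems with tested members. In FPKM the CD98 light chains gained slightly more than the ASC exchangers (53.5 against 52.7), and SLC43 lost slightly more than SLC36 (-10.7 against -9.82). That SLC43 loss includes Slc43a3 (39.5 to 33.3 FPKM), whose protein carries purine nucleobases, so it is not a loss of amino acid carriers alone. The ASC sum was 46.2 ± 1.94 FPKM in controls and 98.9 ± 3.64 FPKM under RUNX1-RARA (SD, n = 3 each), a ratio of 2.14. CD98 light chains summed to 97.1 ± 3.33 and 150.5 ± 12.1 FPKM (ratio 1.55), and heavy chains to 55.5 ± 0.978 and 74.0 ± 2.84 FPKM (ratio 1.33). The heavy chain sum includes Slc3a1, whose value may hold reads of Prepl, an overlapping gene on the opposite strand. Slc3a2 alone had a ratio of 1.25. The SLC36 sum was 17.2 ± 0.579 FPKM in controls and 7.35 ± 0.245 FPKM under RUNX1-RARA, a ratio of 0.428. The SLC43 sum was 49.2 ± 2.01 and 38.5 ± 3.39 FPKM, a ratio of 0.783. The cationic carriers had a ratio of 1.14, the sodium-coupled SLC38 carriers 1.23 and the other SLC38 members 1.54. In each of these 8 systems the groups did not overlap, and each gave the smallest possible exact permutation p of 0.1, so the design cannot pass 0.05 on these sums. The acidic amino acid carriers (at most 0.068 FPKM in any library) and the other light chains (at most 0.027 FPKM) were close to 0 and overlapped.

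**Figure D2:**
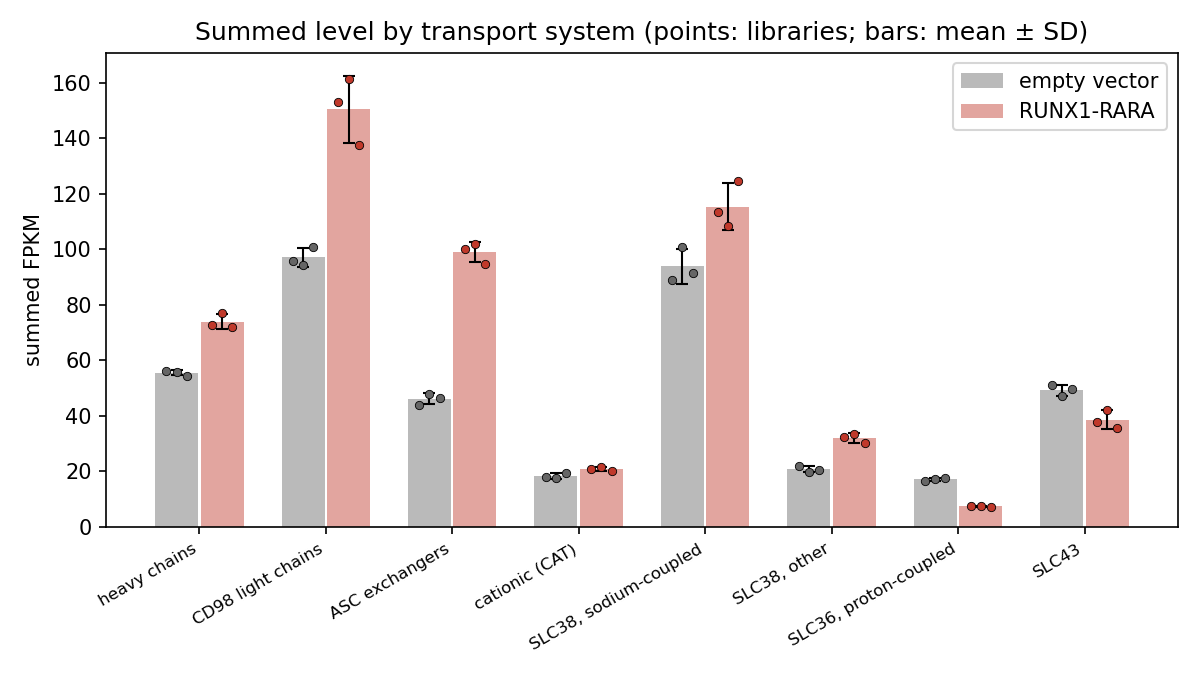
Bars show the mean summed FPKM of each transport system with SD over 3 libraries, and points show the libraries, grey for empty vector and red for RUNX1-RARA. The ASC sum rose from 46.2 to 98.9 FPKM while the SLC36 sum went from 17.2 to 7.35 FPKM.

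The upstream sequences are shown for Slc7a11, because its promoter carries the motif of the amino acid response, and for Slc3a1, Slc1a4 and Slc36a4, which are among the members with the largest called changes. They run from 250 bases before the RefSeq start to the base before it, 5' to 3' on the strand of the gene, on GRCm38.p6 (mm10), and are credited to RefSeq. The windows are chr3:50443614-50443863 (minus strand) for Slc7a11, chr17:85028097-85028346 (plus strand) for Slc3a1, chr11:20332714-20332963 (minus strand) for Slc1a4 and chr9:15709488-15709737 (plus strand) for Slc36a4. Capitals mark the amino acid response element TGATGNAA, bound by ATF4 with C/EBP family partners, on either strand.
Slc7a11: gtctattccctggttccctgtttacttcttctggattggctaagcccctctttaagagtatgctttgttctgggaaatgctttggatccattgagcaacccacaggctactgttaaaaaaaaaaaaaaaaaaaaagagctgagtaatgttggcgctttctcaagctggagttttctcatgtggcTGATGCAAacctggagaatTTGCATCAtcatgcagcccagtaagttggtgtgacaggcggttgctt
Slc3a1: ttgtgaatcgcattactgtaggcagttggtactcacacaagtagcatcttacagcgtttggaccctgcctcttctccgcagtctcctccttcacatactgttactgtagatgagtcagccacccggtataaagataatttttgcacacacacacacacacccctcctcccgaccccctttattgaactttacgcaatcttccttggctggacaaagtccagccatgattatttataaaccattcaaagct
Slc1a4: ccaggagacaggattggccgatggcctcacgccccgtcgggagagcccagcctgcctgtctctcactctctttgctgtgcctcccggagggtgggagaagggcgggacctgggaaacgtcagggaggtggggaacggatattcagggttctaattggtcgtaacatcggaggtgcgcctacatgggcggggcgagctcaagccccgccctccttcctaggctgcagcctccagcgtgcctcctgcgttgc
Slc36a4: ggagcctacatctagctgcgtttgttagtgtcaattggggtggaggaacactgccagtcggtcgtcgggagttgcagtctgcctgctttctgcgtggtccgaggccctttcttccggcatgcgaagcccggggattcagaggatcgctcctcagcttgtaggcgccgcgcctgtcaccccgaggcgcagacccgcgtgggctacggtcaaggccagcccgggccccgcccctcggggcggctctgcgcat
The Slc7a11 window held the element on both strands, as TGATGCAA starting 66 bases and as TTGCATCA starting 47 bases before the start, and the other 3 windows held none. Promoter sequences matched 31 of the 42 members, 17 of them tested. The tested members Slc1a5, Slc7a5, Slc7a2, Slc43a3 and Slc38a1 had no sequence and were not searched for any motif. Among the 31 genes searched the element was found for Slc7a11 and Slc7a7, against 3.91% of all 27025 genes with a sequence (counting a gene when any of its windows held it). The antioxidant response element TGACNNNGC was found for 4, namely Slc38a2, Slc43a1, Slc7a1 and Slc7a6 (11.5% of all genes). The E-box CACGTG of MYC family factors was found for 7 (6.86% of all genes), of which 3 were tested. Slc36a1 and Slc43a1 were called lower and Slc38a7 was not called, while Slc1a6, Slc1a7, Slc38a5 and Slc7a14 were too low to test. The RUNX motif TGTGGT was found for 3, namely Slc36a1, Slc38a7 and Slc3a2 (15.9%). The retinoic acid receptor motif AGGTCA was found for 5 (15.8%). Both strands were searched for every motif. In the Slc36a1 window an E-box starting 31 bases and an AGGTCA match starting 27 bases before the start overlap. A match is a description of the letters only, and no match says nothing about the factor.

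The ASC exchangers carry alanine, serine, cysteine and, in the case of ASCT2, glutamine. Slc1a5, the gene of ASCT2 (ENSMUSG00000001918), stood at 42.5, 46.3 and 45.0 FPKM in empty vector replicates 1 to 3 and at 94.3, 95.5 and 89.6 FPKM in the fusion replicates. Every fusion library lay well above every control, a 2.09-fold difference of means (1.05 on the log2 scale, SE 0.0556, limma adjusted p = 4.46e-08). With the fusion, the gene ranked above 95.3% of tested genes in level, compared with 87.2% in controls. Slc1a4, which encodes the glutamine-independent relative ASCT1 (ENSMUSG00000020142), was a low gene in controls, at 1.61, 1.60 and 1.57 FPKM, and stood at 5.77, 6.31 and 5.27 FPKM under RUNX1-RARA. This 3.64-fold difference equalled 1.39 on the log2 scale (SE 0.0681, limma adjusted p = 2.42e-08), and 97.6% of tested genes had a log2 fold change at or below that of Slc1a4.

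The heavy chain of CD98, Slc3a2 (ENSMUSG00000010095), was among the most abundant members in both groups. Its values were 54.8, 54.3 and 53.1 FPKM in controls and 66.6, 70.6 and 64.7 FPKM under RUNX1-RARA, without overlap. The rise was 1.25-fold (log2 fold change 0.31, SE 0.0534, limma adjusted p = 3.51e-04).

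The light chains that pair with CD98 differed from it and from each other in how far they moved. Slc7a8 (ENSMUSG00000022180), the gene of LAT2, an exchanger of small and large neutral amino acids, stood at 36.03, 32.2 and 37.7 FPKM in controls and at 69.4, 75.7 and 62.0 FPKM in fusion libraries. That is 1.96-fold higher, with no overlap (log2 fold change 0.95, SE 0.0819, limma adjusted p = 2.06e-06). Slc7a6, the gene of y+LAT2, which exchanges cationic for neutral amino acids, stood at 12.4, 12.1 and 12.4 FPKM and rose to 24.3, 26.4 and 25.5 FPKM, a 2.07-fold change (log2 fold change 0.99, SE 0.053, limma adjusted p = 4.67e-08). By contrast, Slc7a5, the gene of the leucine and large neutral amino acid exchanger LAT1, stood at 42.3, 45.0 and 45.4 FPKM in controls and 51.7, 51.6 and 42.3 FPKM under RUNX1-RARA. RUNX1-RARA replicate 3 lay just below every control while the other two fusion libraries lay above them. The difference of 0.13 (95% confidence interval -0.05 to 0.30, limma adjusted p = 0.169) did not pass the test. Without RUNX1-RARA replicate 3 it was 0.22 with a limma adjusted p of 0.00454, so this library decides the call, and over all settings the adjusted p ran from 0.00454 to 0.944.

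The remaining CD98 partners were low. Slc7a11 (xCT, ENSMUSG00000027737), which imports cystine for glutathione synthesis in exchange for glutamate, stood at 2.995, 3.21 and 3.18 FPKM in controls and 4.49, 4.32 and 5.07 FPKM under RUNX1-RARA. The groups did not overlap, and the rise was 1.48-fold (log2 fold change 0.45, SE 0.067, limma adjusted p = 1.36e-04). Slc7a7, the gene of y+LAT1, had 2.15, 2.08 and 2.08 FPKM against 2.99, 3.26 and 2.59 FPKM, 1.40-fold higher (log2 fold change 0.34, SE 0.072, limma adjusted p = 0.00138). Of its exon bases, 7.0% lie opposite exons of Oxa1l, a mitochondrial insertase gene that was itself 1.49-fold higher. Since the strand setting of the counting is not given, reads of that stretch cannot be assigned to either gene with certainty. Slc7a10, the gene of Asc-1, was at 0 in 5 libraries and at 0.057 FPKM in empty vector replicate 3.

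The make-up of the CD98 light chain pool differed between groups. Slc7a5 was the leading light chain in controls, with 44.1%, 47.6% and 45.0% of the summed light chain FPKM, and held 33.8%, 32.0% and 30.7% with the fusion. Slc7a8 went the other way, from 37.6%, 34.0% and 37.4% to 45.4%, 46.9% and 45.1%, and was the leading light chain in all 3 fusion libraries. The share of Slc7a6 was 12.7% ± 0.312 in controls and 16.9% ± 1.42 with the fusion (SD, n = 3 each), also without overlap. Slc7a11 kept a share of 3.22% ± 0.15 against 3.10% ± 0.526, with overlapping groups (exact permutation p = 0.8). The summed light chains per Slc3a2 rose from 1.75, 1.74 and 1.90 to 2.30, 2.28 and 2.12 FPKM per FPKM. A scaling factor applied to a whole library leaves these shares and the ratio as they are. The exact permutation p of 0.1 for Slc7a5, Slc7a6, Slc7a7, Slc7a8 and the ratio is the smallest possible, and 7 such quantities were computed, so none passes 0.05.

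**Figure D3:**
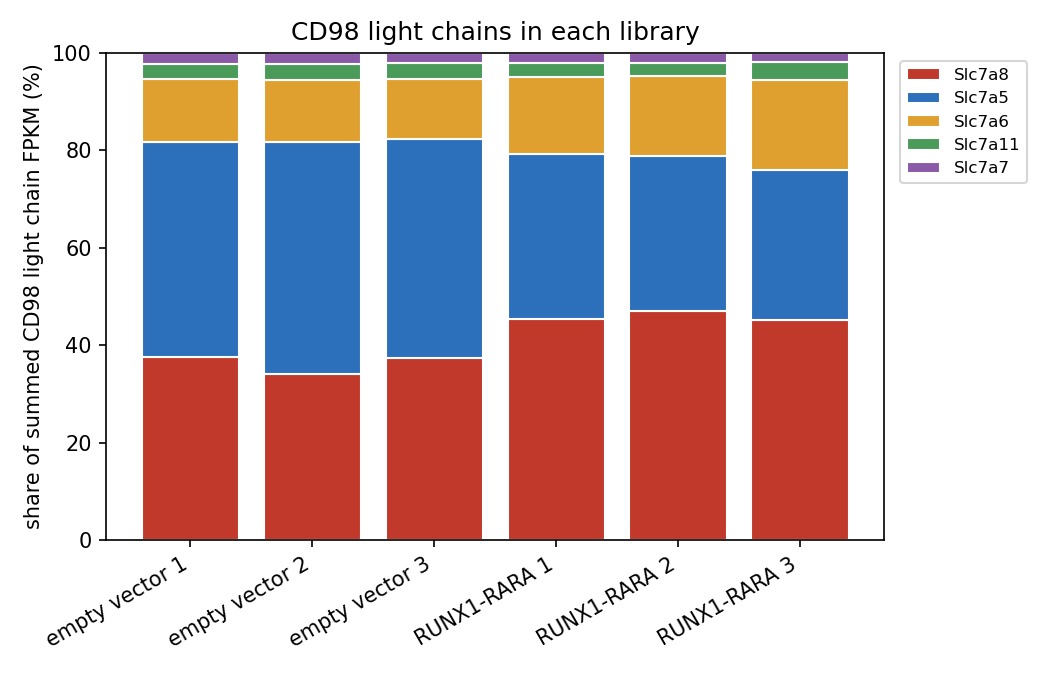
Stacked bars show the share of each CD98 light chain in their summed FPKM (in percent) for each of the 6 libraries, with Slc7a10, at most 0.0565%, not drawn. The Slc7a5 segment lies between 44.1% and 47.6% in the controls and between 30.7% and 33.8% in RUNX1-RARA libraries, while the Slc7a8 segment lies between 34.0% and 37.6% and between 45.1% and 46.9%.

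The second heavy chain of the family, Slc3a1 (rBAT), is known from kidney and gut, where it pairs with Slc7a9 to reabsorb cystine and cationic amino acids. It showed the largest rise of all 22 tested members. Slc3a1 (ENSMUSG00000024131, chromosome 17, 85028376 to 85064236 on mm10) stood at 1.496, 1.63 and 1.31 FPKM in controls and 6.22, 6.60 and 7.17 FPKM under RUNX1-RARA, 4.51-fold higher (log2 fold change 1.63, SE 0.072, limma adjusted p = 1.08e-08). Its light chain Slc7a9 was listed at 0 in all 6 libraries, and Slc7a13, the other renal light chain that binds rBAT in mice, was above 0 only in empty vector replicate 2, at 0.011 FPKM. The 3' end of Slc3a1 overlaps exons of Prepl, a peptidase-like gene on the opposite strand, over 601 bases or 26.5% of the exon length of Slc3a1. Prepl stood at 6.25, 6.12 and 5.60 FPKM in controls and 23.7, 23.9 and 26.6 FPKM under RUNX1-RARA, 4.13-fold higher. Without the strand setting, reads of the 2 genes cannot be told apart in the shared stretch. Prepl was the more abundant gene in every library, so its share in the Slc3a1 value could be large, which was not tested.

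The cationic amino acid transporters of SLC7 act without a heavy chain and supply arginine and lysine. Slc7a1, the gene of the broadly expressed CAT1, rose from 15.9 ± 1.18 to 20.1 ± 0.789 FPKM (SD, n = 3 each), 1.26-fold (log2 fold change 0.32, SE 0.0635, limma adjusted p = 8.97e-04). Slc7a2 (ENSMUSG00000031596, chromosome 8, 40862396 to 40922308 on mm10) encodes CAT2, the inducible arginine carrier of activated macrophages. It stood at 1.92, 2.02 and 1.94 FPKM in controls and at 0.008, 0 and 0 FPKM under RUNX1-RARA, the lowest log2 fold change among the tested members (-1.56, SE 0.0571, limma adjusted p = 2.36e-09). The single value above 0 corresponds to about 2 estimated reads, against at least 589 in each control, so no fold is given. The arginine-consuming enzymes of myeloid cells were lower in the same libraries. Arg1 (arginase) went from 64.3 ± 5.10 to 0.12 ± 0.0655 FPKM, Arg2 from 17.4 ± 1.13 to 0.51 ± 0.107 FPKM and Nos2 (inducible nitric oxide synthase) from 3.36 ± 0.172 to 0.071 ± 0.00557 FPKM. The 6 monocyte and macrophage markers differed widely in the same comparison. Mrc1 went from 38.1 to 0.0767 FPKM, Msr1 from 18.1 to 0.002 FPKM, Lyz2 from 4142 to 90.7 FPKM and Csf1r from 30.2 to 3.45 FPKM. Cd68 was 1.40-fold lower (79.4 to 56.7 FPKM), and Adgre1 overlapped between groups (35.8 and 34.5 FPKM). Their part in the fall of Slc7a2 was not tested. Of the low relatives, Slc7a4 went from 0.18 ± 0.0284 to 0.388 ± 0.0445 FPKM and Slc7a3 lay between 0.155 and 0.519 FPKM in all libraries with overlap. Exons of Slc7a4 also share bases with P2rx6 on the opposite strand (13.3% of their length).

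System A carriers of SLC38 bring in glutamine, alanine and other small neutral amino acids with sodium. Slc38a2 (SNAT2), the most abundant transporter of the set by its mean over all libraries, stood at 67.4, 79.5 and 70.8 FPKM in controls and 90.0, 84.6 and 101.1 FPKM under RUNX1-RARA. The groups did not overlap, and the difference was 1.27-fold (log2 fold change 0.34, SE 0.0806, limma adjusted p = 0.00315). Slc38a1 (SNAT1), its neighbour on chromosome 15 at a distance of 44.5 kb, stood at 21.6, 21.5 and 20.6 FPKM against 23.3, 23.7 and 23.5 FPKM. This 1.11-fold difference (log2 fold change 0.14, SE 0.0493, limma adjusted p = 0.0236) was near the median change of all genes, and its call was lost under TMM scaling (0.02, adjusted p = 0.656) and without any of 3 single libraries. Those were empty vector replicate 3 (limma adjusted p = 0.0803) and RUNX1-RARA replicates 1 and 2 (adjusted p = 0.0532 and 0.0684).

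Slc38a4, next in the same chromosome 15 cluster, did not exceed 0.014 FPKM in any library. The system N glutamine carriers were nearly silent, with Slc38a3 listed at 0 throughout and Slc38a5 at 0.02 to 0.081 FPKM in controls and 0 with the fusion.

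Among the other SLC38 members, Slc38a10, a less characterised intracellular protein, rose and the lysosomal members Slc38a7 and Slc38a9 did not pass the test. Slc38a10 stood at 14.9, 13.4 and 14.0 FPKM in controls and 25.9, 26.9 and 24.0 FPKM under RUNX1-RARA, 1.81-fold higher with no overlap (log2 fold change 0.81, SE 0.0619, limma adjusted p = 7.47e-07). Slc38a9, the lysosomal arginine sensor of mTORC1, differed by -0.05 (95% confidence interval -0.18 to 0.08, limma adjusted p = 0.446) around levels of 2.39 ± 0.102 and 2.28 ± 0.0364 FPKM (SD, n = 3 each). Slc38a7, a lysosomal exporter of glutamine and asparagine, went from 2.79 ± 0.305 to 3.22 ± 0.169 FPKM with overlapping groups. Its log2 fold change of 0.16 (95% confidence interval -0.0049 to 0.317, limma adjusted p = 0.0704) passed only without empty vector replicate 1 (0.22, adjusted p = 0.0215). Slc38a6 fell from 1.48 ± 0.171 to 0.912 ± 0.0835 FPKM, 1.62-fold (log2 fold change -0.37, SE 0.0711, limma adjusted p = 7.07e-04).

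Carriers of SLC36, some of which export small amino acids from lysosomes or import them with protons at acid pH, were lower wherever they could be tested. Slc36a4 (ENSMUSG00000043885), a carrier of proline and tryptophan, stood at 4.71, 5.08 and 4.55 FPKM in controls and 1.19, 1.08 and 1.09 FPKM under RUNX1-RARA. This 4.26-fold fall (log2 fold change -1.44, SE 0.0621, limma adjusted p = 8.56e-09) left only 6.03% of tested genes at or below it. Slc36a1 (PAT1), a lysosomal carrier linked to mTORC1, fell 1.96-fold from 12.01 ± 0.728 to 6.12 ± 0.212 FPKM (log2 fold change -0.87, SE 0.0608, limma adjusted p = 3.86e-07). It lies in a cluster on chromosome 11 with Slc36a2 and Slc36a3, 19.3 kb from Slc36a2. Slc36a2 stood at 0.356, 0.218 and 0.268 FPKM in controls and 0, 0 and 0.015 FPKM under RUNX1-RARA. That last value is about 2 estimated reads, and the gene was too low for the test. Slc36a3, a further 6.76 kb away, stayed between 0.063 and 0.122 FPKM in every library, with overlapping groups.

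SLC43 members were all lower, by unequal amounts. Slc43a3 (ENSMUSG00000027074), whose protein carries purine nucleobases rather than amino acids, was abundant at 41.3, 37.8 and 39.3 FPKM in controls and 32.5, 36.7 and 30.7 FPKM under RUNX1-RARA. RUNX1-RARA replicate 2 came close to the lowest control, and the fall was 1.18-fold (log2 fold change -0.24, SE 0.07, limma adjusted p = 0.00939), not passing after quantile normalization (-0.18, adjusted p = 0.0616). Slc43a2 (LAT4), an exit carrier of branched-chain amino acids, phenylalanine and methionine, fell 2.03-fold from 8.22 ± 0.328 to 4.05 ± 0.338 FPKM (SD, n = 3 each; log2 fold change -0.87, SE 0.0665, limma adjusted p = 7.85e-07). Slc43a1 (LAT3), with the same substrates, lies 73.0 kb from Slc43a3 on chromosome 2 and went from 1.52 ± 0.22 to 1.18 ± 0.122 FPKM. The difference, -0.21 on the log2 scale (SE 0.0791, limma adjusted p = 0.0347), lost the call without empty vector replicate 1 (adjusted p = 0.0933), empty vector replicate 3 (0.1265) or RUNX1-RARA replicate 1 (0.12), after quantile normalization (0.11) and with low genes kept (0.0588).

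**Figure D4:**
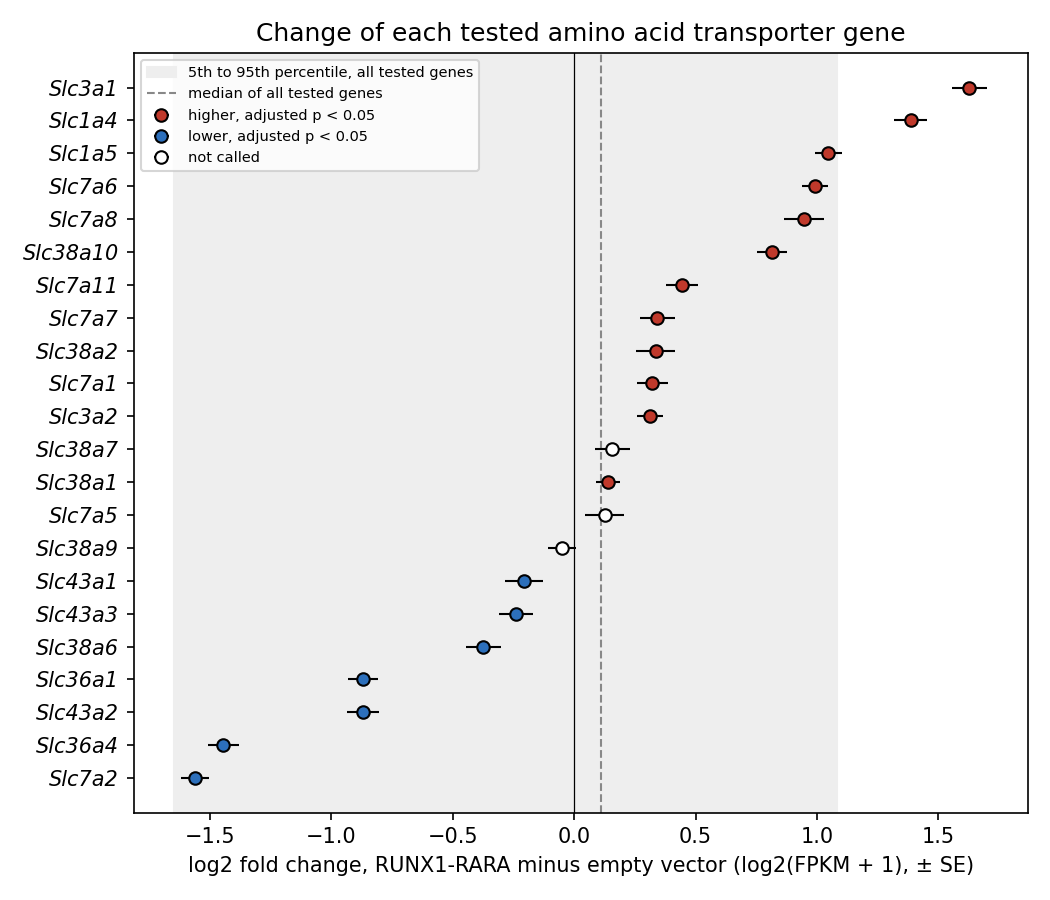
Log2 fold changes (RUNX1-RARA minus control, from log2(FPKM + 1) values, with SE) of the 22 tested transporter genes in order of size, red where higher, blue where lower and white where the limma test was not passed. The grey band spans the 5th to 95th percentile of all tested genes (-1.65 to 1.08) and only Slc3a1 and Slc1a4 lie outside it, while the dashed line marks the median of all tested genes at 0.11. The Slc3a1 value may hold reads of the overlapping gene Prepl, which also rose, and their share was not tested.

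The other 20 genes did not reach the level for a test. Of these, 7 were listed at 0 in every library, namely the glutamate carrier genes Slc1a2, Slc1a6 and Slc1a7, the light chains Slc7a9 and Slc7a12, and Slc38a3 and Slc38a8. The remaining 13 had a value above 0 in at least 1 library, none above 0.519 FPKM. High-affinity glutamate carriers were therefore close to silent as a group, with Slc1a1 at 0 to 0.057 FPKM and Slc1a3 at 0.028 to 0.046 FPKM in controls and 0 with the fusion. Slc7a14, Slc7a15 and Slc38a11 did not exceed 0.035 FPKM. Antisense or non-coding neighbours also overlap exons of Slc43a2 (9.18% of their length), Slc7a2 (6.95%), Slc38a10 (5.72%), Slc38a9 (1.09%) and Slc1a2 (1.44%), and for Slc1a1 the protein-coding 4430402I18Rik does (31.9%). Where Slc1a3 was listed at 0, 3 reads over the 3 fusion libraries would give 0.00369 FPKM, counting error only.

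Genes that act with the transporters were described from 6 lists. Of 23 tested amino acid response genes, many of them ATF4 targets, 16 were higher and 6 lower (95.7% called), and the median on the log2 scale was 0.45. All tested genes, the background for each of the lists, had 77.7% called, 46.0% higher and 31.7% lower, with a median of 0.11. Trib3, a pseudokinase induced by amino acid stress, rose from 3.57 ± 0.50 to 14.3 ± 1.316 FPKM (SD, n = 3 each), 4-fold (log2 fold change 1.75, limma adjusted p = 3.38e-08). The largest changes of this list were falls, of the transcription factor genes Cebpb and Atf3 (log2 fold change -2.02 and -1.92). Cebpb went from 22.7 ± 6.51 to 4.85 ± 1.49 FPKM and Atf3 from 5.52 ± 0.514 to 0.727 ± 0.0801 FPKM. Atf4 itself, which was picked once its value was known, had 220 ± 12.4 FPKM in controls and 246 ± 9.28 FPKM under RUNX1-RARA. The difference of 0.16 on the log2 scale was near the median of all genes (limma adjusted p = 0.0446). That call was lost in 7 of 14 alternatives, with adjusted p from 8.90e-04 to 0.619. Among them were TMM scaling (0.04, adjusted p = 0.619) and leaving out empty vector replicate 2 (0.146) or 3 (0.118) or RUNX1-RARA replicate 1 (0.157) or 2 (0.0892).

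Glutamine and glutamate enzymes were 14 higher and 3 lower of 20 tested (85% called against 77.7% of all tested genes, median 0.33). Gpt2, a mitochondrial alanine aminotransferase, rose from 2.63 ± 0.123 to 10.6 ± 0.413 FPKM (SD, n = 3 each). Prodh, which degrades proline, rose from 3.27 ± 0.0662 to 7.02 ± 0.321 FPKM, tied in size with Pycrl of proline synthesis (0.91 on the log2 scale for both). Gpt2 and Atf4 each stand in 2 of the lists. Glul, the glutamine synthetase gene, fell 2.36-fold from 18.4 ± 1.004 to 7.80 ± 0.455 FPKM. Arginine, tryptophan and branched-chain enzymes were 11 higher and 5 lower of 16 tested (100% called against 77.7% of all tested genes, median 0.40; 3 lower without empty vector replicate 1), and Arg1, Arg2 and Nos2, given above, were the largest changes among them.

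Components of amino acid sensing by mTORC1 were 15 higher and 10 lower of 33 tested (75.8% called, median 0.15). Rragb, a Rag GTPase, rose 3.69-fold to 3.54 ± 0.20 FPKM and Wdr59, a GATOR2 subunit, 2.79-fold to 7.12 ± 0.474 FPKM, while Fnip2, a folliculin partner, fell 2.60-fold to 3.65 ± 0.363 FPKM. Regulators and partners of the transporters were 8 higher and 6 lower of 16 tested (87.5% called, median 0.07). Mycn rose 6.1-fold from 2.58 ± 0.299 to 15.8 ± 0.697 FPKM and Nedd4, a ubiquitin ligase family member that acts on membrane carriers, 2.10-fold to 85.2 ± 3.17 FPKM (SD, n = 3 each). Cd44 encodes an adhesion receptor whose variant forms are reported to hold xCT at the surface of tumour cells. Its level, with all forms counted together, fell 8.64-fold from 79.7 ± 2.54 to 9.22 ± 0.382 FPKM. Chosen after their values were seen, Myc rose 2.03-fold to 138 ± 5.76 FPKM and Nfe2l2, the gene of the antioxidant factor NRF2, fell 1.88-fold to 35.95 ± 0.846 FPKM.

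Amino acid and peptide carriers outside the 6 families were 8 higher and 9 lower of 20 tested (85% called), out of 36 genes, with a median of 0.09. Slc15a3, a lysosomal carrier of peptides and histidine, was 20.8-fold lower, going from 7.98 ± 1.10 to 0.383 ± 0.0986 FPKM (SD, n = 3 each). The taurine carrier gene Slc6a6 fell 2.72-fold from 44.7 ± 3.48 FPKM, and the glycine carrier gene Slc6a9 rose 2.68-fold from 2.04 ± 0.184 FPKM. Each list gene named here was called by limma, and whether any list differs from the transporters was not tested. Arg1, Arg2, Nos2, Atf3 and Slc15a3 were under 1 FPKM in every RUNX1-RARA library. They passed the level filter only through the empty vector libraries, so the filter itself favoured a fall for them. The list counts also hold other genes that passed through a single group, in either direction.

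**Figure D5:**
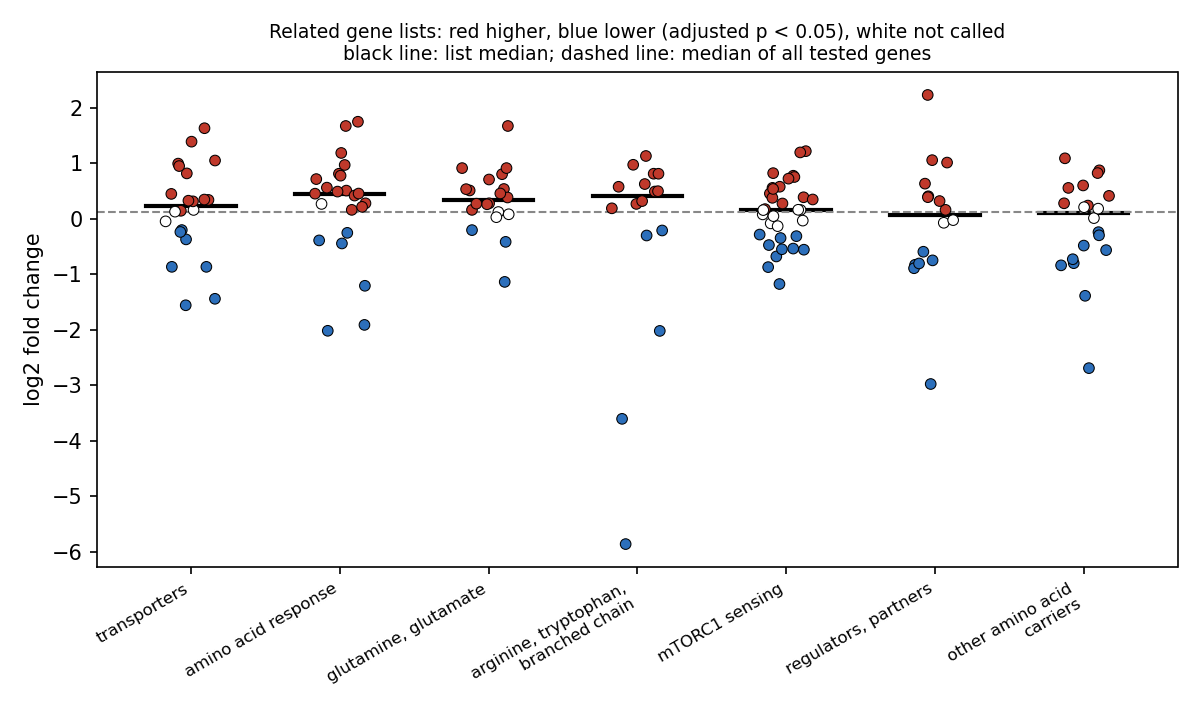
Each point is a tested gene, red where higher, blue where lower and white where not called in RUNX1-RARA, with the log2 fold change on the vertical axis, for the transporters and the 6 related lists. Black lines mark list medians (0.23 for transporters, 0.45 for amino acid response genes) and the dashed line the median of all tested genes at 0.11, and the points of every list lie on both sides of 0.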

How the data were processed

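RNA-seq libraries from 6 samples were compared, grouped by the genotype label, with columns tied to samples through the descriptions in the labels. The deposited values were FPKM with 3 decimals, calculated by the authors. The tools DESeq2 1.32.0, featureCounts 2.0.1, HISAT2 2.2.1 and fastp 0.22.0 and the builds mm10 and hg38 are listed, with no roles, per the submitters' processing notes. Annotation and strand setting were not given in the sources used here, so reads of overlapping genes may be shared. The table held 21684 Ensembl IDs, 78 without a symbol, and the ID with the higher mean was used for 19 symbols with several IDs. Pycr3 was matched as Pycrl. FPKM hold no counts. Relative depth was estimated from steps of low values with exon lengths from GENCODE M21 on mm10 (21591 IDs). Between 88.7% and 93.4% of low values were within 0.1 of whole reads, not nearly all, so no count test was run. Among these near-whole values 62.7% to 71.2% were even numbers, so the depths and read numbers given here may be too high.

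The 10901 genes at 1 FPKM or more in at least 3 libraries were tested with limma 3.58.1 in R 4.3.3 on log2(FPKM + 1), with a group term, trended empirical Bayes moderation and Benjamini-Hochberg adjustment, two-sided. Log2 fold changes take empty vector from RUNX1-RARA and understate the change of low genes. Folds are ratios of mean FPKM. Sums and shares were compared by exact permutation over libraries. The test was checked on simulated data. The members and gene lists were chosen with earlier results of these data known. Members called with a log2 fold change of at least 1, the 8 most abundant members and CD98 with its tested light chains are given in every library. Up to 3 called genes with the largest change are named per list, and other names are marked. Promoter sequences came from RefSeq tables. Alternatives were a pseudocount of 0.1, other filters, TMM scaling (unweighted), equal sums, quantile normalization, no trend, a replicate block and leaving out each library. No 2 libraries held identical values (at most 0.376% of tested genes), and within-group Pearson correlations over tested genes, which are not independent, were 0.996 to 0.998.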

Additional observations from a re-analysis of the deposited data

How the results depend on the processing

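Across 14 alternatives the count of higher transporters lay between 11 and 13 and that of lower ones between 5 and 9, and no tested transporter changed direction. Calls of Atf4, Slc38a1, Slc43a1, Slc43a3, Slc38a7 and Slc7a5 depended on the setting, as given beside their values, and the other 17 tested members kept theirs, except that Slc7a2 was not tested when the filter was on the mean level. The other 21 named list genes and the overlap partners Prepl and Oxa1l kept their calls. TMM scaling shifted the all-gene median of log2 fold changes by -0.11, to 0.00, and the split of called genes from 59.2% to 49.7% higher. Under it the ratios of summed levels became 1.97 for the ASC exchangers, 1.41 for the other SLC38 members, 1.05 for the cationic carriers, 1.23 for heavy chains, 0.393 for SLC36 and 1.24 for all members. The count of lower arginine, tryptophan and branched-chain genes ran from 3 to 5 when single libraries were left out, the 3 coming without empty vector replicate 1. With the replicate number as a block, 11 transporters were higher and 7 lower, and Slc38a1 lost its call (adjusted p = 0.0782). Deviations of same-numbered libraries correlated at 0.02, -0.37 and -0.06, and those of differently numbered libraries at -0.31 to 0.40. So few and scattered values cannot decide whether the numbers pair the samples. Leaving out a library leaves 2 in its group, and the spread is then pooled over both groups. Levels near 0.0187 FPKM can rest on 1 read.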
